A study of Mus musculus with 4 samples.

Results

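Many of the genes described here encode proteins of the azurophil granule, the first granule that a developing neutrophil makes. Others mark the promyelocyte, the stage at which that granule is filled. The set also takes in Calr and Serpinb1a, which encode an endoplasmic reticulum chaperone and a cytosolic serpin. The 10 genes, chosen with earlier results of these data known, are Mpo, Elane, Ctsg, Prtn3, Ms4a3, Prss57, Cst7, Calr, Nkg7 and Serpinb1a. Every probe set annotated to one of these genes and to no other was taken, which gave 12 of the 45037 probe sets tested, for 9 of the 10 genes and of the 18193 genes measured. Prss57, a serine protease of the same granule, had no probe set under that rule and is named only. The genes Mpo, Elane, Ctsg, Prtn3, Ms4a3, Cst7 and Nkg7 have 1 probe set each, Serpinb1a has 2 and Calr has 3.

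Transcript levels were measured on 4 Affymetrix arrays, 2 in each of 2 groups. Both groups are LSK cells, bone marrow cells without lineage markers that carry c-Kit and Sca1, from the femurs of mice of the strain WT B6/129, with no treatment and no age given in the sources used here. The cells of both groups carried a c-Myc-eGFP fusion protein and were sorted by its level, into a Hi and a Lo group. From each sample 5 ng of total RNA was amplified and labelled with biotin. Nothing in the labels says whether the 2 samples of a group came from separate mice or from pools, so the p-values measure only the spread between these samples. LSK cells are a mixture, and in such bulk RNA fewer cells of a type and less RNA per cell cannot be told apart.

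In a neutrophil precursor the azurophil granule is loaded with myeloperoxidase and with a small family of serine proteases that are made as inactive precursors, folded in the endoplasmic reticulum, trimmed to the active form by cathepsin C and packed onto the proteoglycan serglycin. Transcription of these genes is known to peak at the promyelocyte stage and to stop before the later granules are made. In the bone marrow some multipotent progenitors already carry these transcripts at a lower level, which is called myeloid priming. The known activators of these genes include PU.1, C/EBP factors, Myb and Runx1.

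The arrays within a group were alike over all probe sets (r = 0.99 for Hi and 0.983 for Lo, over probe sets, which do not count as replicates). As a sign of RNA quality, the excess of the 3′ over the 5′ probe set of a control was read on the log2 scale. For Gapdh the Hi arrays showed 0.63 and 0.65 and the Lo arrays 0.74 and 0.78, with the groups apart. For Actb the Hi arrays showed 0.60 and 0.55 and the Lo arrays 0.84 and 0.57, so that the groups overlapped. The part of this excess in the differences given here was not tested. Of the genes that define the gate, Kit was bright on all 4 arrays, with a difference of -0.27 on the log2 scale, while Ly6a, which encodes Sca1, had no probe set of its own. Cd34 and Flt3, which subdivide LSK cells, stood at 0.11 and -0.15. A gene is called dim where it lay at or under the brightest of 27 bacterial control probe sets on the same array, at a log2 intensity of 4.74 to 4.87. By that limit 0 of the 12 probe sets were dim in either group.

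In 8 of the 9 measured genes both arrays of the Hi group stood above both of the Lo group, and the genes differed widely in how far. On the log2 scale the Hi minus Lo difference was over 2 for Ms4a3, Ctsg and Elane, between 1 and 2 for Cst7 and Prtn3, and under 1 for Mpo, Nkg7, Calr and Serpinb1a. By limma over all 45037 probe sets 0 of the 12 probe sets passed an adjusted p of 0.05, as did 0 of all probe sets in either direction (background 0% higher and 0% lower, smallest adjusted p = 0.0839). At an unadjusted p under 0.05, 7 of the 12 probe sets were higher and 0 lower, where 9.05% of all probe sets were higher and 8.91% lower. The groups did not overlap, with Hi on top, in 10 of the 12 and in 29.3% of all probe sets, and with Lo on top in 0 of the 12 and in 22% of all. With each gene taken by its brightest probe set the median difference of the 9 genes was 1.0, against 0.03 for all 18193 genes. A difference over 1 was seen in 5 of the 9 genes and in 3.51% of all genes, and one over 2 in 3 of the 9 and in 0.577%. Over probe sets these were 5 of 12 against 3.7% and 3 of 12 against 0.464%.

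**Figure D1:**
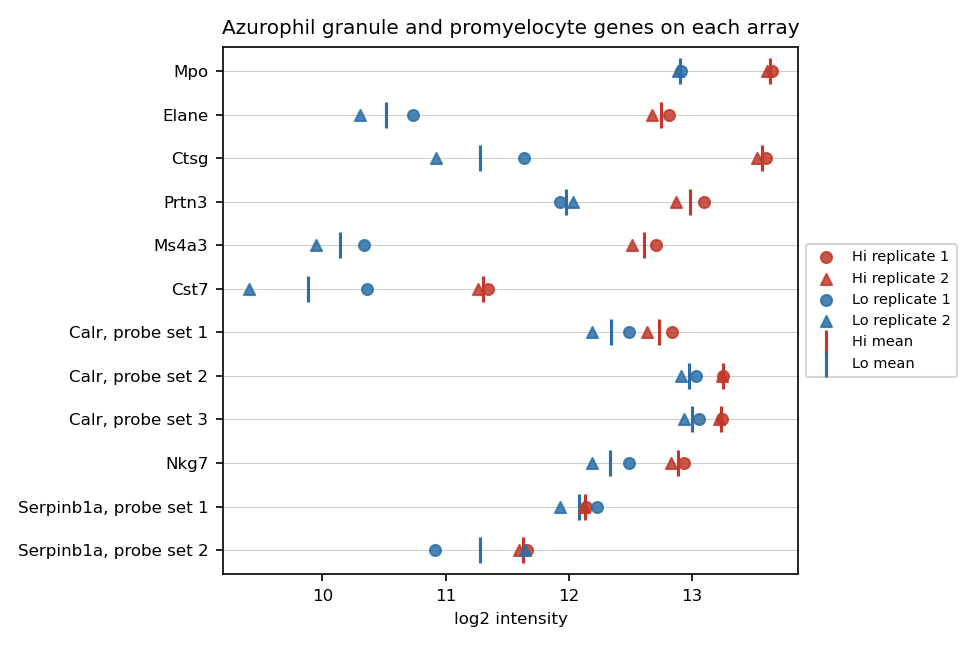
Log2 intensity of the 12 probe sets (rows) on the 4 arrays; red marks are Hi and blue marks Lo, circles are replicate 1 and triangles replicate 2, and vertical bars are the group means of n = 2. The red and blue marks are apart in 10 rows and overlap in both rows of Serpinb1a.

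The serine proteases come first. Elane encodes neutrophil elastase (chromosome 10, 79886312 to 79888216 in GRCm38.p6). Its log2 intensity was 12.82 and 12.68 on the Hi arrays and 10.74 and 10.30 on the Lo arrays. The groups were far apart, and the Lo arrays differed more from each other than the Hi arrays did. The difference was 2.23 ± 0.21 (moderated SE, n = 2 each), or 4.68-fold, with a limma adjusted p of 0.0840 over all probe sets. Ctsg encodes cathepsin G, a granule protease that lies in a cluster with the granzymes and mast cell proteases (chromosome 14, 56099885 to 56102574). It had 13.60 and 13.53 in Hi and 11.63 and 10.92 in Lo. Again the Hi arrays were close together and Lo replicate 2 was the lowest. Ctsg differed by 2.29 ± 0.28 (SE), which is 4.87-fold (limma, adjusted p = 0.0949).

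Prtn3 encodes proteinase 3 and is the direct neighbour of Elane (chromosome 10, 79879667 to 79883174). It had a log2 intensity of 13.10 and 12.87 in Hi and 11.93 and 12.03 in Lo, so that the Lo arrays were nearly equal. Prtn3 differed by 1.0 ± 0.16 (SE), which is 2.01-fold (limma, adjusted p = 0.107). By 1 probe set each, Elane and Prtn3 thus differed by unequal amounts although they lie side by side. Prtn3 was the brighter gene in Lo, and whether bright and less bright probe sets respond equally was not tested. The log2 ratio of Elane to Prtn3 within an array was higher by 1.22 ± 0.27 (SE, n = 2 each) in Hi than in Lo, and the groups did not overlap in it. These ratios were not tested, and their errors are not moderated. An exact two-sided permutation test of 2 arrays against 2 gives no p under 0.333.

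Mpo encodes myeloperoxidase, the main azurophil granule protein, which turns hydrogen peroxide and chloride into hypochlorous acid (chromosome 11, 87793784 to 87804412). It had a log2 intensity of 13.65 and 13.61 in Hi and 12.91 and 12.89 in Lo. The 2 arrays of each group were nearly the same, and the groups were apart. Mpo differed by 0.73 ± 0.13 (SE), which is 1.66-fold (limma, adjusted p = 0.122). Set against Elane on the same arrays, the difference of Mpo was smaller by 1.49 ± 0.21 (SE), and the arrays of the groups did not overlap in that ratio.

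The sequences before the start sites of these genes are shown because most of these genes stood above Lo on both Hi arrays and because their activators are known to bind close to the start. Taken from RefSeq promoter windows of GRCm38.p6, each is the 250 bases upstream of the start, read in the direction of the gene, with matches to AGGAAGT, a core recognised by PU.1 and other Ets factors, in capitals. The windows are chr11:87793534-87793783 (plus strand) for Mpo, chr10:79886062-79886311 (plus) for Elane, chr10:79879417-79879666 (plus) for Prtn3, chr14:56102575-56102824 (minus) for Ctsg and chr19:11640852-11641101 (minus) for Ms4a3.
Mpo: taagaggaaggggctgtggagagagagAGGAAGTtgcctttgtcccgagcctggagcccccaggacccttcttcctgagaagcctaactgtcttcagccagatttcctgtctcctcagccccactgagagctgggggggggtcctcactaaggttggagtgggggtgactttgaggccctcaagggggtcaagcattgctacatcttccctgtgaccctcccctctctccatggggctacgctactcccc
Elane: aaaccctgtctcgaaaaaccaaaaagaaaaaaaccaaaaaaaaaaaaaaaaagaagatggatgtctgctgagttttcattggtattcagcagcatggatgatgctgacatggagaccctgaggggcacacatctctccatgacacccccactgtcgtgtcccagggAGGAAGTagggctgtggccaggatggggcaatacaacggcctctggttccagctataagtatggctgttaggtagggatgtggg
Prtn3: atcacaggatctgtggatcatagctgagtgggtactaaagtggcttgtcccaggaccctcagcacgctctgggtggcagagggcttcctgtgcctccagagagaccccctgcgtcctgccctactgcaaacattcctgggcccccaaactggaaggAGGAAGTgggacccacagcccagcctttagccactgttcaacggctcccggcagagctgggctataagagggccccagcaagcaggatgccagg
Ctsg: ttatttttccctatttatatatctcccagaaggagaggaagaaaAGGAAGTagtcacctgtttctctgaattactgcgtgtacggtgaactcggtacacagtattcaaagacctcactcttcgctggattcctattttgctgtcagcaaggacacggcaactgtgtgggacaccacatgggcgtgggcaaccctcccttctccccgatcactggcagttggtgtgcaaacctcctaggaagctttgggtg
Ms4a3: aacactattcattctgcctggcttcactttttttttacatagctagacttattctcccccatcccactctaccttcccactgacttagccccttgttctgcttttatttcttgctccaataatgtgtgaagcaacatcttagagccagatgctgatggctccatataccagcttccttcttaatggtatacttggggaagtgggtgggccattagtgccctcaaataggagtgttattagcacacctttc

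The table of windows held 8 of the 10 genes, all but Prss57 and Serpinb1a. Both strands were searched for 5 motifs, which were chosen with the sequences in view, and 0 of the 26 matches overlapped a match of another motif. AGGAAGT was found in 5 of the 8 windows, those of Mpo, Elane, Prtn3, Ctsg and Cst7, and in 7.69% of 32851 windows of the same length in the table. In Elane and Prtn3 it began 84 and 94 bases before the start, in Ctsg and Mpo 206 and 223 bases before it, and in Cst7 63. The window of Ms4a3, whose difference was larger than that of any of these genes, held none, nor any of the other 4 motifs. The C/EBP core GCAAT was in 3 of the 8 windows (23.1% of all), those of Elane, Mpo and Calr. In Elane it began 57 bases before the start and in Mpo 56 on the other strand. The Myb core AACNG was in 7 of 8, but also in 74.2% of all windows. The Runx core TGTGGT was in 3 of 8 (14.0% of all), those of Ctsg, Cst7 and Nkg7. The Myc E-box CACGTG was in 1 of 8 (6.02% of all), that of Calr, beginning 224 bases before its start. A match describes the letters only and does not show binding.

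Ms4a3 encodes a membrane protein with several passes that marks granulocyte-monocyte progenitors (chromosome 19, 11629499 to 11640851). It had a log2 intensity of 12.71 and 12.51 in Hi and 10.34 and 9.95 in Lo. Both arrays of Hi were well above both of Lo. The difference of 2.46 ± 0.20 (SE), 5.52-fold, was the largest of the 9 genes, with a limma adjusted p of 0.0839. It ranked 52 among all 18193 genes, with Ctsg at 73 and Elane at 79. These 3 genes passed 0.05 in the fits over 1 value per gene. A fit over 1 value per gene, which adjusts over 18193 genes, gave adjusted p-values of 0.0313 for Ms4a3, 0.0314 for Elane and 0.0390 for Ctsg with the mean of each gene's probe sets, where limma called 1.39% of genes higher and 1.52% lower. With the brightest probe set alone they were 0.0385, 0.0397 and 0.0486, where 1.04% were called higher and 1.18% lower. Over all alternatives the limma adjusted p ran from 0.0313 to 0.434 for Ms4a3, from 0.0314 to 0.434 for Elane and from 0.0390 to 0.434 for Ctsg.

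Among the inhibitors of granule proteases the picture was split. Cst7 encodes cystatin F, an inhibitor of cathepsin C and related cysteine proteases in granules (chromosome 2, 150570415 to 150578944). It had a log2 intensity of 11.34 and 11.26 in Hi and 10.36 and 9.41 in Lo. The groups were apart, but the 2 Lo arrays were nearly 1 unit from each other. Cst7 differed by 1.42 ± 0.36 (SE), which is 2.67-fold (limma, adjusted p = 0.185). Leaving out Lo replicate 2 gave 0.94, and leaving out Lo replicate 1 gave 1.90. Serpinb1a encodes a cytosolic serpin that inactivates elastase, cathepsin G and proteinase 3 (chromosome 13, 32842092 to 32853206). Its brighter probe set had 12.14 and 12.12 in Hi and 12.23 and 11.93 in Lo, and the other had 11.66 and 11.59 in Hi and 10.92 and 11.64 in Lo. The groups overlapped on both. The differences were 0.05 ± 0.17 and 0.35 ± 0.29 (SE), with limma adjusted p-values of 0.912 and 0.589, and the first was -0.10 without Lo replicate 2. The second is of a design that can also bind transcripts of related genes, and Serpinb1a has near copies beside it, so its value is uncertain.

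Calr encodes calreticulin, an endoplasmic reticulum chaperone that binds the precursor of myeloperoxidase while it folds (chromosome 8, 84842088 to 84846931). Its brightest probe sets had 13.25 and 13.24 in Hi and 13.03 and 12.91 in Lo, and 13.24 and 13.22 in Hi and 13.06 and 12.94 in Lo. The remaining one had 12.83 and 12.63 in Hi and 12.49 and 12.19 in Lo. On all 3 probe sets both Hi arrays were above both Lo arrays by a small step. The brightest ones are of a design that can also bind other transcripts, so the 3 are not equally sure readings of Calr. The differences were 0.28 ± 0.14, 0.24 ± 0.14 and 0.39 ± 0.18 (SE), with limma adjusted p-values of 0.392, 0.450 and 0.364. Nkg7 encodes a granule membrane protein known from natural killer and cytotoxic T cells that is also made in early myeloid cells (chromosome 7, 43437138 to 43438246). It had 12.94 and 12.83 in Hi and 12.49 and 12.19 in Lo. Nkg7 differed by 0.55 ± 0.17 (SE), which is 1.46-fold (limma, adjusted p = 0.236).

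**Figure D2:**
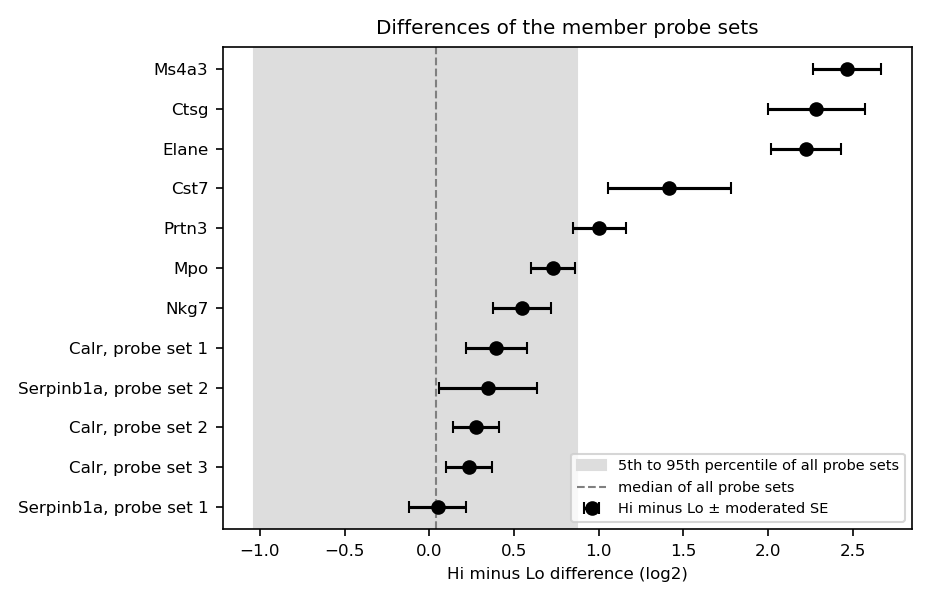
Hi minus Lo difference on the log2 scale for the 12 probe sets in order of size, with the moderated standard error as bars; the grey band runs from the 5th to the 95th percentile of all 45037 probe sets (-1.03 to 0.87) and the dashed line is their median (0.04). Ms4a3, Ctsg, Elane, Cst7 and Prtn3 lie to the right of the band, and the other 7 probe sets lie within it.

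In order of the difference the genes stood as Ms4a3, Ctsg, Elane, Cst7, Prtn3, Mpo, Nkg7, Calr and Serpinb1a. Neighbours in that order were compared as log2 ratios within each array, with no test. The ratios of Ms4a3 to Ctsg, of Ctsg to Elane and of Cst7 to Prtn3 overlapped between the groups, at differences of 0.18 ± 0.17, 0.06 ± 0.14 and 0.41 ± 0.54 (SE). The ratio of Elane to Cst7 was higher in Hi by 0.81 ± 0.26 and that of Prtn3 to Mpo by 0.27 ± 0.11, with the arrays of the groups apart in both. The ratio of Ms4a3 to Elane, which are not next to each other in the order, was higher in Hi by 0.24 ± 0.04, with the groups apart. Ctsg overlapped against both. The errors of these ratios are not moderated and are themselves uncertain with so few arrays, so the order of Ms4a3, Ctsg and Elane is not settled. The Hi minus Lo difference of each of these 3 genes was larger than that of Mpo, by 1.49 to 1.73. Mpo was the brighter gene in both groups, and whether the probe sets of the genes compared respond equally was not tested.

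The pattern over the 4 arrays was also compared with that of every other gene. The mean centred profile of Mpo, Elane, Ctsg and Prtn3 was taken, and the genes with the smallest root mean square distance from it over the 4 arrays were Cdc6 (0.0096 log2 units), Palb2 (0.046), Aurkb (0.062), Stil (0.065) and Bcl2l15 (0.066). Cdc6 is a licensing factor of DNA replication, Palb2 a partner of Brca2, Aurkb a mitotic kinase and Stil a centriole factor. The Hi minus Lo differences of the first 4 ran from 1.47 to 1.63. Bcl2l15 was dim on both Lo arrays, so that its distance rests on values at background, and it was at least 2.1-fold higher in Hi. With 4 arrays in 2 groups, many genes with a difference of that size have such a profile. Mpo, Elane, Ctsg and Prtn3 themselves lay further from their mean profile, at distances of 0.42, 0.34, 0.39 and 0.31. Their own Hi minus Lo differences were 0.73, 2.23, 2.29 and 1.0, so the mean profile has a step that none of them shows. Closeness to this mean is therefore not closeness to any of these 4 genes.

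The other genes of the granule were taken from a list of 18 that includes the activating protease, the packing proteoglycan, lysozymes, lysosomal hydrolases, sorting proteins and the peroxidases related to Mpo, of which 15 were measured. Their median difference was -0.005, against 0.03 for all genes, and 0 passed the adjusted threshold (background 0% in either direction). At an unadjusted p under 0.05, 2 were higher (background 9.25% of genes) and 1 lower (background 11%). Ctsc, the cathepsin C gene, had a log2 intensity of 10.42 on both Hi arrays and 10.48 and 10.40 in Lo, a difference of -0.02 ± 0.13 (SE). Srgn, the serglycin gene, had 13.37 and 13.39 in Hi and 13.40 and 13.36 in Lo, a difference of -0.005 ± 0.13. Both genes overlapped between the groups, and both differences had the other sign without Lo replicate 1. With the mean of its 3 probe sets Ctsc stood at -0.77, so its probe sets disagree. The lysozyme gene Lyz2, an azurophil granule enzyme that macrophages also make, had 12.85 and 12.76 in Hi and 13.06 and 13.01 in Lo, a difference of -0.22 ± 0.13 with the groups apart. The eosinophil peroxidase gene Epx, near Mpo on chromosome 11, had 9.82 and 9.79 in Hi and 8.84 and 8.90 in Lo, a difference of 0.93 ± 0.13 with a limma adjusted p of 0.100 (0.0444 with the mean of probe sets over genes and 0.0545 with 1 probe set per gene). The lactoperoxidase gene Lpo, which lies next to Mpo, was dim on both Lo arrays and had 4.92 and 4.99 in Hi, at least 1.15-fold higher. Ap3d1, a subunit of the adaptor that sorts granule proteins, stood at -0.73 ± 0.15 (adjusted p = 0.143 by limma) and the glucosidase gene Gaa at -0.65 ± 0.24 (-0.38 without Lo replicate 2).

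Of 12 genes for glycoprotein folding in the endoplasmic reticulum, all measured, 11 had both Hi arrays above both Lo arrays (background 30% of genes) and 1 had both below (background 25.4%). The median difference was 0.32, and 0 passed the adjusted threshold, with 2 higher (background 9.25%) and 0 lower (background 11%) in the test without adjustment. Pdia6, a disulfide isomerase gene, had 11.21 and 11.33 in Hi and 10.60 and 10.79 in Lo, a difference of 0.58 ± 0.15 (SE). Erp29 stood at 0.59 ± 0.19, Uggt1, which checks the fold of glycoproteins, at 0.43 ± 0.18 and the chaperone gene Hsp90b1 at 0.36 ± 0.15. Pdia3, which works in a complex with calreticulin, stood at 0.33 ± 0.21 (0.09 without Lo replicate 2 and 0.57 without Lo replicate 1) and Hspa5 at 0.15 ± 0.14. Pdia4 had the greatest difference, 2.56 ± 1.29, and was named after its values were seen: it had 11.14 and 10.76 in Hi and 10.19 and 6.59 in Lo, with Lo replicate 2 far below the other arrays. The gene below was Prkcsh, a glucosidase subunit gene, at -0.41 ± 0.16. Calr, at 0.24 to 0.39, stood near the median of this list.

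Protease inhibitors other than Cst7 and Serpinb1a lay mostly the other way. Of 14 listed genes 10 were measured, with a median of -0.38, and 7 had both Hi arrays below both Lo arrays (background 25.4% of genes) and 1 both above (background 30%). The median was -0.23 without Hi replicate 2 and -0.68 over the 8 genes that passed the dim filter. Serpinb6b, which lies near Serpinb1a on chromosome 13, had a log2 intensity of 8.90 and 8.99 in Hi and 10.48 and 10.38 in Lo, a difference of -1.49 ± 0.14 (SE) with a limma adjusted p of 0.0839. Serpinb6a stood at -1.20 ± 0.23 and Serpinb8 at -1.08 ± 0.36 (-0.61 without Lo replicate 2). Slpi, a secreted inhibitor of elastase and cathepsin G, was the gene above, with 12.02 and 11.94 in Hi and 10.51 and 10.04 in Lo, a difference of 1.71 ± 0.21 (adjusted p = 0.0949 by limma). Serpinb6b and Slpi passed 0.05 in both fits over 1 value per gene (adjusted p = 0.0313 and 0.0390 with the mean of probe sets), and Serpinb8 in that with the mean of probe sets alone (adjusted p = 0.0468, with a difference of -1.22). At an unadjusted p under 0.05, 1 of the 10 was higher (background 9.25%) and 3 were lower (background 11%), and 0 passed the adjusted threshold.

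Among 14 other serine proteases of blood cell granules 12 were measured, 6 of them dim on all 4 arrays. Mcpt8, a basophil protease gene that lies next to Ctsg, had 10.98 and 10.94 in Hi and 8.92 and 8.03 in Lo. Its difference of 2.49 ± 0.34 (SE), with a limma adjusted p of 0.0981 (0.0432 with the mean of probe sets over genes), was close to that of Ctsg. Other genes of the list stood lower in Hi: the granzyme gene Gzmm at -0.58 ± 0.15 and Gzmb at -1.67 ± 0.77 (-0.60 without Lo replicate 2 and -2.73 without Lo replicate 1), while the chymase gene Cma1 was dim in Hi and at least 1.83-fold higher in Lo. The median of the 12 was -0.18. It came to 0.05 when Lo replicate 2 was left out and to 0.07 over the 7 genes with a probe set of unshared design. Over the 3 genes that passed the dim filter it came to -1.10. That filter also dropped genes that were not dim by the limit, such as Gzmm. At an unadjusted p under 0.05, 1 was higher (background 9.25%) and 2 lower (background 11%), and 0 passed the adjusted threshold.

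**Figure D3:**
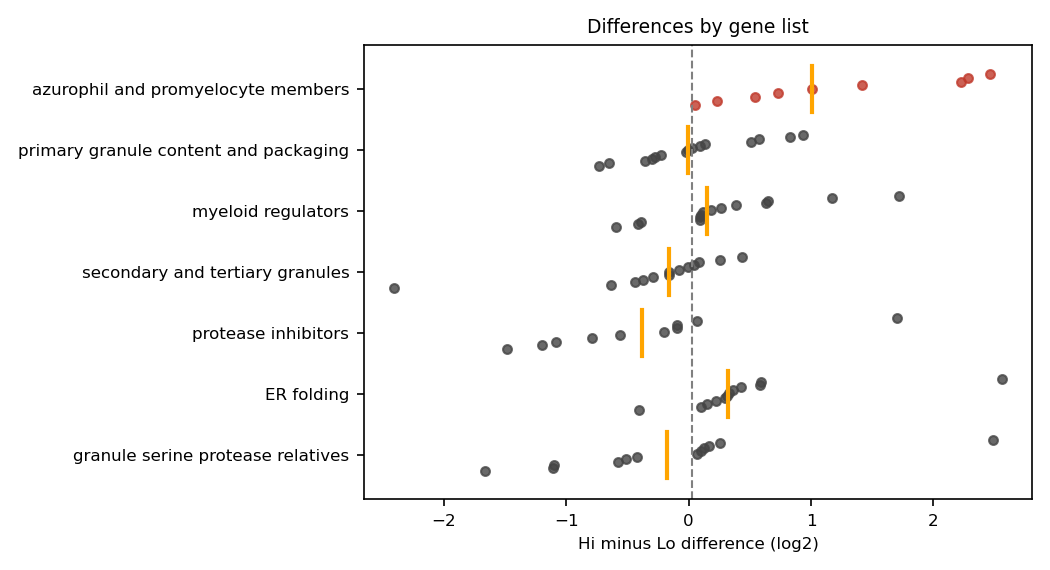
Hi minus Lo difference on the log2 scale for each measured gene of the 9 azurophil granule and promyelocyte genes (red) and of 6 lists of related genes (grey), each gene by its brightest probe set; orange bars are the medians of the lists and the dashed line is the median of all genes (0.03). The medians run from -0.38 for the protease inhibitors to 0.32 for folding in the endoplasmic reticulum, and the red points have a median of 1.0.

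Regulators of the promyelocyte stage had a median difference of 0.15. Of 15 listed transcription factor and receptor genes 14 were measured, and 7 had both Hi arrays above both Lo arrays (background 30%) and 2 both below (background 25.4%). Cebpa, the factor that starts the granulocyte programme, had 12.44 and 12.51 in Hi and 12.07 and 12.35 in Lo, a difference of 0.26 ± 0.16 (SE). It was 0.13 with Lo replicate 1 left out and 0.40 with Lo replicate 2 left out. Gfi1, a repressor needed for neutrophils, stood at -0.41 ± 0.27 (-0.08 without Hi replicate 2 and -0.74 without Hi replicate 1), and the PU.1 gene Spi1, Myb and Runx1 at 0.09 ± 0.14, 0.10 ± 0.14 and 0.39 ± 0.33. None of the 14 passed the adjusted threshold (0 by limma, background 0% in either direction). At an unadjusted p under 0.05, 2 were higher (background 9.25% of genes) and 0 lower (background 11%). Those above were Irf8, a monocyte and dendritic cell factor, at 0.63 ± 0.22, and the Fc receptor gene Fcgr3 at 1.72 ± 0.57, with 11.27 and 10.95 in Hi and 10.15 and 8.63 in Lo. Fcgr3 stood at 0.96 with Lo replicate 2 left out. The macrophage colony-stimulating factor receptor gene Csf1r stood at 0.65 ± 0.24 (0.36 without Hi replicate 1) and the GM-CSF receptor subunit gene Csf2ra at -0.39 ± 0.14 (-0.61 with the mean of its probe sets). Cebpe had no probe set of its own.

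Of 16 listed genes of the later granules 13 were measured. Of these 1 had both Hi arrays above both Lo arrays (background 30% of genes), 1 both below (background 25.4%), and 11 overlapped between the groups. Their median difference was -0.16. Leaving out Hi replicate 1 gave -0.34, leaving out Lo replicate 2 gave -0.60, and the sign turned with Hi replicate 2 left out (0.22) or Lo replicate 1 left out (0.21). Camp, the cathelicidin gene of the specific granule, had 12.21 and 11.52 in Hi and 12.44 and 11.20 in Lo, a difference of 0.04 ± 0.52 (SE). Ltf, the lactoferrin gene, stood at -0.44 ± 0.39 and the surface protein gene Cd177 at -0.63 ± 0.63. The array numbered 1 was above the array numbered 2 in both groups for 10 of the 13 genes, against 23.3% of all genes. The median excess of replicate 1 was 0.60 in Hi and 1.0 in Lo. The azurophil granule and promyelocyte genes shared the sign of that offset in 8 of 9 genes. Its median in them was 0.08 in Hi and 0.31 in Lo, and their median Hi minus Lo difference was 1.0. The part of this offset in the differences was not tested. The 2 genes that did not overlap were the gelatinase gene Mmp9, with 5.20 and 4.60 in Hi and 7.14 and 7.47 in Lo, a difference of -2.41 ± 0.28 with a limma adjusted p of 0.0947, and the chemokine receptor gene Cxcr2 at 0.44 ± 0.15. Mmp9 passed 0.05 in both fits over 1 value per gene (adjusted p = 0.0446 and 0.0479), with a difference of -1.91 for the mean of its probe sets.

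**Figure D4:**
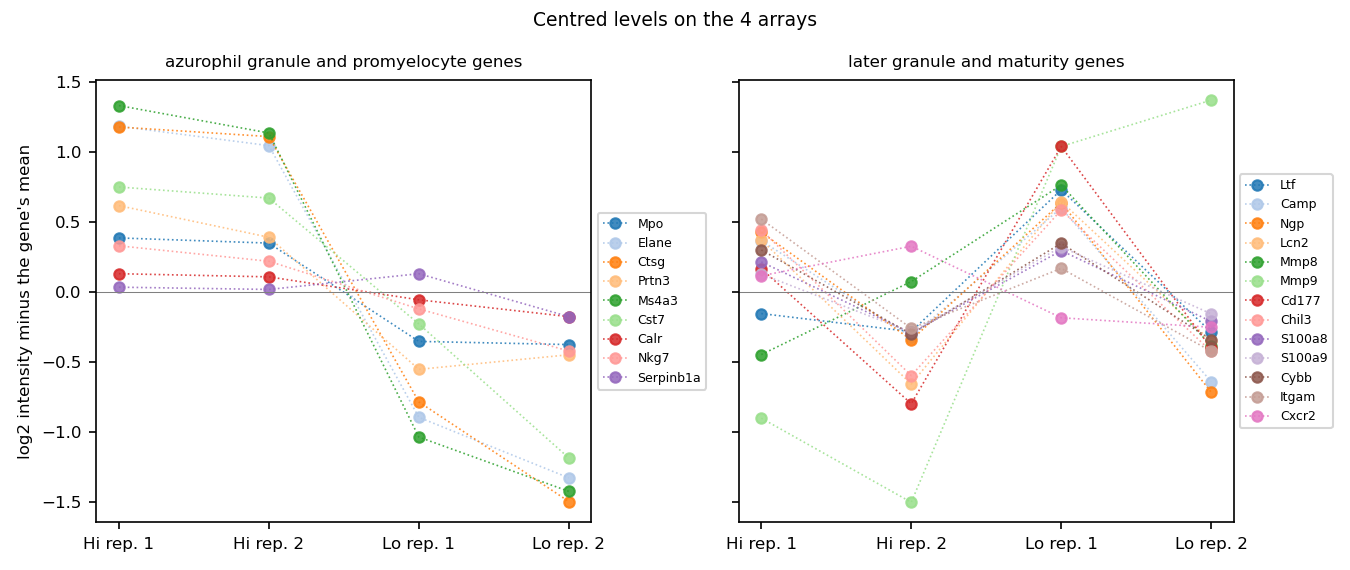
Log2 intensity on each array minus the gene's mean over the 4 arrays, for the 9 azurophil granule and promyelocyte genes (left) and the 13 measured genes of later granules and neutrophil maturity (right); dotted lines join the points of a gene and stand for no order. On the left the Hi arrays lie above the Lo arrays in all genes but Serpinb1a, and on the right 10 of 13 genes are higher on the array numbered 1 in both groups.

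Position gave a further view that the choice of genes did not use. The protein-coding genes within 3 places of the 10 genes number 52, of which 43 were measured and 10 were dim on all 4 arrays. Their median difference was 0.22. At an unadjusted p under 0.05, 10 were higher and 1 lower (background 9.25% and 11% of genes), and 0 passed the adjusted threshold. The Hi pair stood wholly above the Lo pair in 21 of the 43 (background 30%) and below in 3 (background 25.4%). Among those 21 were Gzmg, Ms4a4d, Oosp2 and Cldnd2, which were dim on all 4 arrays, and Oosp2 was also among the 10 higher. Around Elane and Prtn3 the measured neighbours Plppr3, Ptbp1, Med16 and R3hdm4 stood at -0.01 ± 0.22, 0.10 ± 0.16, -0.11 ± 0.17 and 0.25 ± 0.22 (SE), and Misp was dim on all arrays. Mcpt8, next to Ctsg, was the only neighbour with a difference over 2, while Mcpt4, Gzme, Gzmd and Gzmg of the same cluster were dim on all arrays. Next to Ms4a3 the family member Ms4a2, a subunit of the IgE receptor, stood at -0.06 ± 0.32. Oosp1, at the second place after Ms4a3, had 7.94 and 7.51 in Hi and 6.57 and 5.96 in Lo, a difference of 1.46 ± 0.30. The unmeasured Prss57 (chromosome 10, 79781474 to 79794684) overlaps Fstl3 (79777274 to 79782630) and Palm (79793572 to 79820915) in the reference table, which stood at 1.18 ± 0.28 and 0.82 ± 0.23. Syce2, at the second place after Calr, stood at 1.13 ± 0.31.

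**Figure D5:**
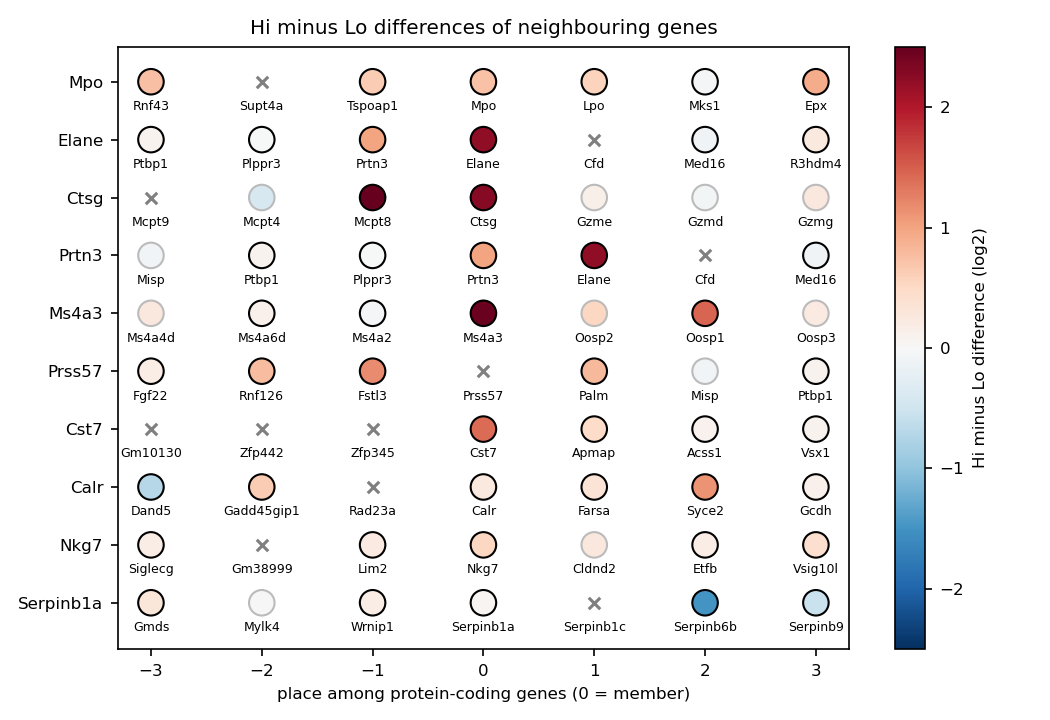
Hi minus Lo difference on the log2 scale (colour) of the 3 protein-coding genes on each side of the 10 genes, by place in the order along the chromosome, with the gene itself at place 0; grey outlines are genes dim on all 4 arrays and crosses are genes with no probe set of their own. Dark red cells are Elane, Ctsg, Ms4a3 and Mcpt8, and the darkest blue cell is Serpinb6b.

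Markers of other cells that an LSK sort could hold were read on the same arrays. Over all genes the Hi pair stood wholly above the Lo pair in 30% and wholly below in 25.4%. All 5 measured erythroid markers had both Hi arrays above both Lo arrays, with summed intensities of 12382 and 14519 in Hi and 2129 and 2930.0 in Lo. All 6 measured markers of long-term stem cells, among them Procr and Hlf, were below in Hi, with sums of 6285 and 6338 in Hi and 16416 and 15228 in Lo. Of 5 measured monocyte and macrophage markers 3 were apart and above in Hi, with sums of 6243 and 4620 in Hi and 2951 and 2264 in Lo. The eosinophil list had 3 of 5 measured genes above in Hi, while Il5ra and Ccr3, the receptors that define that cell, were dim on all 4 arrays. The 5 measured mature neutrophil markers had sums of 7793 and 4933 in Hi and 9417 and 3970 in Lo, which overlap. Those of basophils and mast cells had sums of 7932 and 7832 in Hi and 8028 and 7625 in Lo, which overlap too. Within that list Mcpt8 stood at 2.49 ± 0.34 and Gata2 at -0.47 ± 0.14, each with the groups apart. The 6 natural killer and cytotoxic T cell markers, which bear on Nkg7, had a median difference of -1.05 with 3 of 6 apart and below in Hi, with sums of 866 and 1038 in Hi and 1099 and 1729 in Lo. B cell markers overlapped between the groups in their sums, 4388 and 4237 in Hi and 4178 and 4666 in Lo. Of 5 measured megakaryocyte markers 3 were above and 2 below in Hi, with sums of 6220.3 and 5363 in Hi and 4439 and 4930 in Lo. The part of the stem cell, erythroid, monocyte, eosinophil, basophil, natural killer and megakaryocyte markers in the differences of the azurophil granule and promyelocyte genes was not tested.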

How the data were processed

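The deposited values are 1 linear intensity per probe set and array, made by the authors with RMA per the submitters' processing notes; its version and background step are not given in the sources used here. Their log2 was taken here without adding an offset. Since RMA brings the single probes of all arrays to 1 distribution, differences in the amount of RNA per cell are not visible. The probe set values can still differ, and their log2 medians ran from 5.70 on Hi replicate 1 to 5.82 on Lo replicate 2.

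Of 45101 probe sets 64 controls were left out. The platform annotation gave 1 symbol to 34945, several to 932 and none to 9160; Entrez identifiers matched 34741 to a GRCm38.p6 gene table. A gene was read by its probe set with the highest mean, for 18193 genes. Hi minus Lo was fitted by lmFit and eBayes of limma 3.58.1 (R 4.3.3, two-sided). The fit had 2 residual and 1.976 prior degrees of freedom, with Benjamini-Hochberg adjustment over 45037 probe sets. Errors are moderated standard errors, except those of ratios between genes, which come from the spread of the 4 arrays without moderation. The number of arrays limits the precision. The fit was tested on simulated data.

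Named were the 10 genes, per list the 4 genes with the smallest unadjusted p and some fixed genes, the 5 genes nearest in profile, and neighbours within 3 places. The members, the lists and the dim limit were chosen with earlier results of these data known. "At least" folds set a dim group at the dim limit. Other genes were named after their values were seen. Alternatives were a replicate block, leaving out each array, other normalizations, an offset, a dim filter, other probe set rules and other variance models.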

Additional observations from a re-analysis of the deposited data

How the results depend on the processing

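With 2 arrays in each group the precision is limited, and a probe set at or under the dim limit has only a bound. All of 14 alternatives kept the 8 genes other than Serpinb1a higher in Hi where they had a value. Without probe sets of shared design Calr had none. That setting also dropped probe sets made for several transcripts of 1 gene, among them the Calr probe set at 0.39. The number of probe sets called was 0 by limma and 0 with any array left out; it was 1 with the dim filter and 1 with the ordinary test without moderation. Over genes in place of probe sets it was 528 (252 higher, 276 lower) with the mean of probe sets and 404 (190 higher, 214 lower) with 1 probe set per gene. Of the azurophil granule and promyelocyte genes, 3 were called with the mean of probe sets and 3 with 1 probe set per gene; both settings fit and adjust over 18193 features instead of 45037, while the dim filter, with 22519, called 0 of them. The median difference of the 9 measured genes, 1.0, ran from 0.89 to 1.12 with single arrays left out, and was 1.10 with arrays shifted to 1 median and 1.21 without probe sets of shared design, which leaves 8 genes. The shift of the arrays moved the median of all probe sets by 0.09. The labels number the arrays 1 and 2 in each group but do not say that a number is shared material; with the replicate block 0 probe sets and 0 of the 12 were called, and the median difference was 1.0. The deviations of the arrays numbered 1 from their group means correlated at 0.072, across probe sets. Small differences turned their sign with single arrays left out, where they ran from -0.10 to 0.20 for Serpinb1a, from -0.58 to 0.66 for Camp, from -0.95 to 0.068 for Ltf, from -1.36 to 0.085 for Cd177, from -0.062 to 0.021 for Ctsc and from -0.027 to 0.017 for Srgn. With arrays shifted to 1 median Ctsc stood at 0.075 and Srgn at 0.090. The cause of these moves was not tested.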
